A study of Mus musculus with 12 samples.

Results

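The insulin-like growth factor (IGF) system was examined through 9 genes, which encode the ligands Igf1 and Igf2, the receptor Igf1r and the binding proteins Igfbp2 to Igfbp7. They were chosen by gene symbol, and each was represented by its only probe set among those paired with exactly 1 symbol, so that 9 of the 19938 genes on the arrays are described. Expression had been measured in quadriceps muscle taken on day 7 after birth from C57Bl/6 mice, on 6 arrays labelled KO (genotype cofilin-2 null) and 6 labelled WT (wildtype littermates), with 1 mouse per array. The sources used here describe no other allele and no treatment in either group, and do not give the kind of Cfl2 allele, the sex of the mice or the number of litters. Null mice are known to die at about this age, which limits them as a model of lasting disease.

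Cfl2, the gene that was knocked out and which encodes the muscle actin-depolymerizing protein cofilin-2, did not match the labels on any array. Its level on the log2 scale was 12.31 to 12.43 on the arrays labelled KO and 4.92 to 7.71 on the arrays labelled WT, so that it was higher by 6.32 ± 0.36 (SE, adjusted p = 1.98e-07). Directions below follow the labels as deposited, labelled KO relative to labelled WT, and for Cfl2 it is opposite to the direction in the text of the study. The same holds for the adipose genes Ucp1 and Lep and for Myh8, the perinatal myosin heavy chain. All 12 arrays were kept in the group of their label. Whether the labels of the 2 groups were exchanged was not tested; if they were, every direction given here would turn, Igfbp5 becoming the largest fall among the members and Igf1r the largest rise. The arrays otherwise looked like muscle, since the 10 muscle fibre markers, among them Acta1, Ckm and Ttn, averaged 12.79 to 12.95 on the arrays labelled KO and 12.82 to 13.0 on those labelled WT. Array medians were 6.35 to 6.41 for those labelled KO and 6.42 to 6.46 for those labelled WT. Over all genes, 31.9% passed an adjusted p of 0.05, made up of 20.1% of all genes that rose and 11.8% that fell. When each array was centred on its median, which moved the median difference of all genes to 0.036 from -0.015, the higher share of the called genes was 79.3% instead of 62.9%.

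IGF-I and IGF-II are small secreted proteins related to insulin. Both signal through the IGF-I receptor, a tyrosine kinase that drives growth of muscle fibres and proliferation and differentiation of their precursors, while the binding proteins hold the ligands outside the cell, carry them, and either restrain or prolong their action. In rodents Igf2 is highly expressed in fetal muscle and is shut down after birth, while Igf1 takes over as the main ligand of growing muscle.

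Of the 9 genes, 5 were higher (Igf1, Igfbp4, Igfbp5, Igfbp6 and Igfbp7), 2 were lower (Igf1r and Igf2) and 2 did not pass the test (Igfbp2 and Igfbp3). Over all genes 20.1% were higher and 11.8% lower. With dim probe sets left out, which kept all 9 members, 50.5% of the 9872 genes left were called. The values of the 2 groups did not overlap for 6 genes, with the arrays labelled KO above those labelled WT for 4 and below for 2, whereas over all genes 10.7% lay wholly above and 4.69% wholly below. By the deposited labels the largest rise was that of Igfbp5, at 2.23-fold, and the largest fall that of Igf1r, which stood at 0.608 of its level on the arrays labelled WT. The median log2 difference was 0.307 for the 9 genes and -0.015 for all genes.

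**Figure D1:**
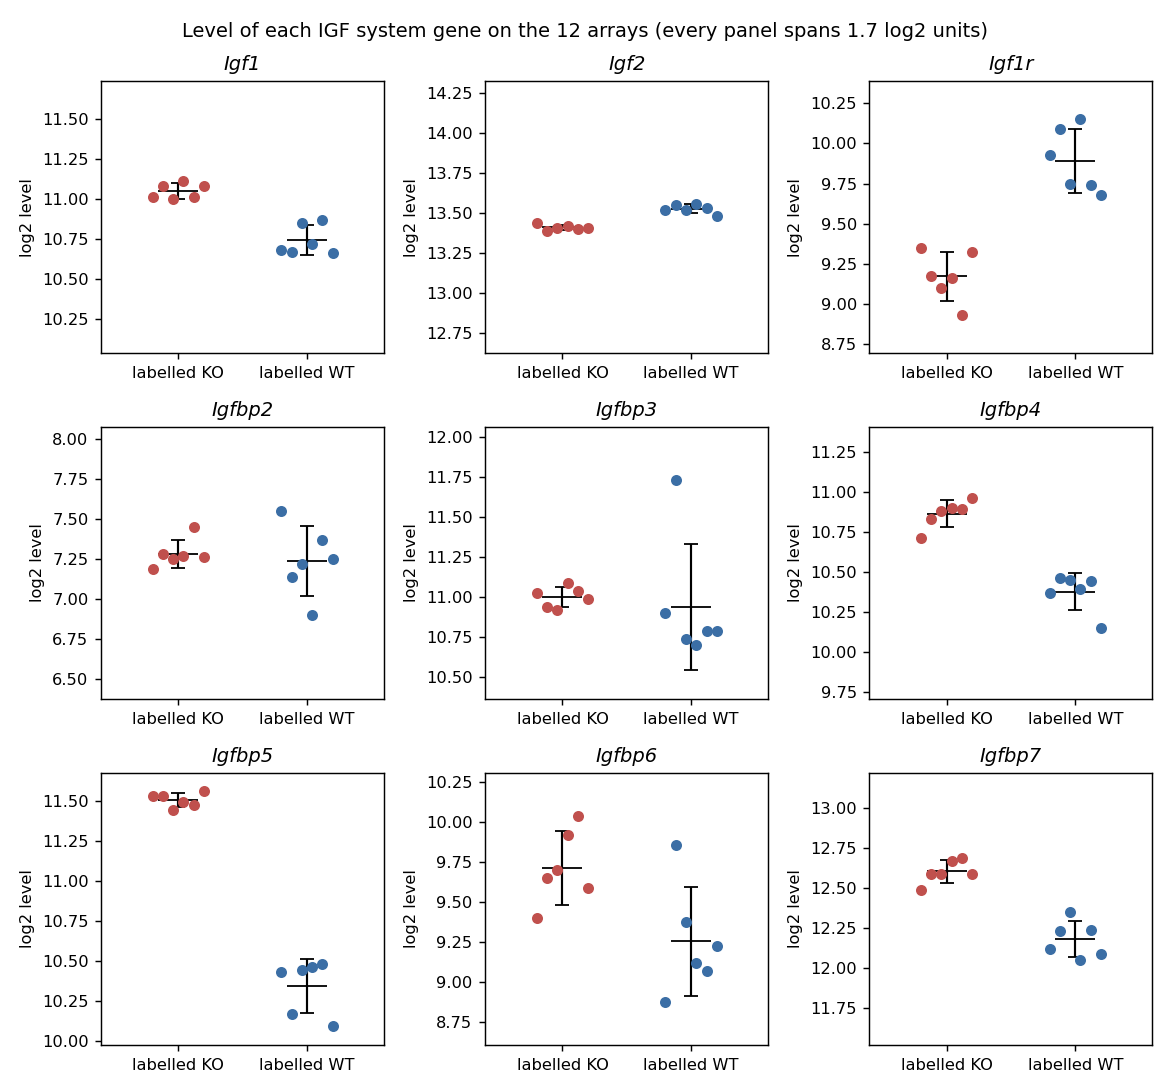
Log2 level of each of the 9 genes on every array (points, y axis), with the arrays labelled KO on the left and those labelled WT on the right of each panel; lines and bars give the mean and SD (n = 6 each). Igfbp5 lay at 11.44 to 11.56 on the arrays labelled KO, against 10.09 to 10.48 on those labelled WT, while 1 array labelled WT stood at 11.73 for Igfbp3, above every other array.

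The stretch of 100 bases just before a transcription start is shown for 5 members, 4 binding proteins and the receptor, because they differed in response. For Igfbp4 and Igfbp3 the start used, at chr11:99041244 and chr11:7213923, lies inside the gene interval given below and is not its outer end. Igfbp5 and Igfbp4 were higher, Igf1r was lower, and Igfbp2 and Igfbp3 did not pass. Sequences are those of RefSeq for GRCm38.p6, whose table held all 9 members, and are read 5′ to 3′ on the strand of the gene. Capitals mark TATA-type elements in Igfbp5, Igfbp4 and Igfbp3 and GC boxes in Igfbp2 and Igf1r. Both kinds were searched on both strands, and their letters are spelled out after the sequences.
Igfbp5, chr1:72874866-72874965, minus strand: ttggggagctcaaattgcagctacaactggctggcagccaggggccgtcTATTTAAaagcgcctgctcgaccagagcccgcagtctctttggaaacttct
Igfbp4, chr11:99041144-99041243, plus strand: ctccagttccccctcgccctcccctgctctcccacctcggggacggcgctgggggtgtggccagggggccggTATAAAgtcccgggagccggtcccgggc
Igfbp3, chr11:7213924-7214023, minus strand: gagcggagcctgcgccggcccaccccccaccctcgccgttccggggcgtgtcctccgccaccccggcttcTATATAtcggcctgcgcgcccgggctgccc
Igfbp2, chr1:72824380-72824479, plus strand: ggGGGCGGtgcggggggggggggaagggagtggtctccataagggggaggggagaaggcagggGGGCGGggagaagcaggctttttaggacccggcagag
Igf1r, chr7:67952157-67952256, plus strand: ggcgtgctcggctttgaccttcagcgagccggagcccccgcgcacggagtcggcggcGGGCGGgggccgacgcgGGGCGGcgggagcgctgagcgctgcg

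The 4 binding protein genes shown thus differed in the kind of element marked. A TATA-type element stood before Igfbp3, Igfbp4 and Igfbp5, beginning 30, 28 and 51 bases before the start, and GC boxes stood before Igfbp2 and Igf1r. Among the members not shown, Igfbp7 also had GC boxes, and Igf2 had them before some of its 4 starts but not others. Igfbp2 has another start in RefSeq with none before it. Over all 32851 windows of the same length, TATAAA was held by 5.56%, TATATA by 2.19%, TATTTAA by 1.5% and GGGCGG by 24.7%. These matches are a description of the letters. Of the 3 members with a TATA-type element, Igfbp4 and Igfbp5 were called higher and Igfbp3 was not called. Of the 4 with GC boxes before any of their starts, Igfbp7 was called higher, Igf1r and Igf2 were called lower and Igfbp2 was not called.

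Among the ligands, Igf1 was higher. Its lowest, median and highest log2 levels were 11.0, 11.045 and 11.11 on the arrays labelled KO, against 10.66, 10.7 and 10.87 on the arrays labelled WT. The groups did not overlap, and the 6 arrays labelled KO lay within 0.11 of each other. The difference of 0.31 ± 0.05 (SE), or 1.24-fold, had an adjusted p of 0.000272. The gene lies at chr10:87858265-87937047 (GRCm38.p6).

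Igf2, the fetal growth factor, moved the other way by a much smaller amount. It lay at 13.39, 13.41 and 13.44 (lowest, median, highest) on the arrays labelled KO, against 13.48, 13.525 and 13.56 on the arrays labelled WT, so that the groups were separate but only by 0.04. Its log2 level fell by 0.12 ± 0.03 (SE), a level 7.66% lower, with an adjusted p of 0.0127. Only 3 genes had a higher mean level over the 12 arrays, and a difference near the top of an array's range can be compressed; whether it was here was not tested. The call was lost when each array was centred on its median (-0.064, adjusted p = 0.188). Igf2 lies at chr7:142650768-142666816 and is imprinted, being transcribed from the paternal copy.

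Igf1r, which encodes the receptor for both ligands, was the member with the largest fall. Its log2 levels were 8.93, 9.165 and 9.35 (lowest, median, highest) on the arrays labelled KO and 9.68, 9.84 and 10.15 on the arrays labelled WT. A gap of 0.33 separated the groups, although each spanned over 0.4 within itself. The log2 difference was -0.72 ± 0.09 (SE), with a 95% interval of -0.92 to -0.52 and an adjusted p of 7.43e-05. In size it stood behind 517 of the 19938 genes. The gene lies at chr7:67952257-68233668. Igf1 and its receptor therefore differed in direction, Igf1 being higher and Igf1r lower on the same arrays. The other ligand, Igf2, was called lower as Igf1r was, a call that was lost with centring.

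Of the 6 binding proteins, 4 were higher (66.7%, beside 20.1% of all genes), none was lower and 2 did not pass in limma's test. In that test Igfbp2 and Igfbp3 had unadjusted p-values of 0.614 and 0.678. With dim probe sets left out, which kept all 6 binding proteins, 3456 of the 9872 genes left were higher. Igfbp5, the binding protein that developing muscle cells make in abundance and that is bound to the extracellular matrix, separated the groups most. It lay at 11.44, 11.51 and 11.56 (lowest, median, highest) on the arrays labelled KO, against 10.09, 10.435 and 10.48 on the arrays labelled WT. The gap of 0.96 between the groups was wider than the range within either, which was 0.12 on the arrays labelled KO and 0.39 on those labelled WT. The log2 difference was 1.16 ± 0.07 (SE) with a 95% interval of 1.01 to 1.3 and an adjusted p of 2.21e-07, and only 11 genes had a smaller p and 108 a larger difference. Its gene lies at chr1:72858065-72874865.

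Igfbp2, the neighbour of Igfbp5 on the same chromosome, gave no such difference. The 2 genes face each other, with 5.59 kb and no other gene start between their ends in the RefSeq table. Igfbp2 levels were 7.19, 7.265 and 7.45 (lowest, median, highest) on the arrays labelled KO and 6.9, 7.235 and 7.55 on the arrays labelled WT. The narrower labelled KO range lay inside that of the arrays labelled WT. The difference was 0.05 ± 0.09 (SE), with a 95% interval of -0.14 to 0.23 and an adjusted p of 0.722. That interval leaves out the lower bound for Igfbp5.

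Igfbp4, which binds both IGFs and is inactivated by the protease PAPP-A, was 1.40-fold higher. It stood at 10.71, 10.885 and 10.96 (lowest, median, highest) on the arrays labelled KO, against 10.15, 10.415 and 10.46 on the arrays labelled WT. Every array labelled KO lay above every array labelled WT, and the array labelled WT6 was the lowest by far. The difference was 0.49 ± 0.06 (SE) with an adjusted p of 4.75e-05. It was smallest when that array was left out, at 0.44, and the call was kept.

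Igfbp7, a relative with weak IGF binding that is made by vessels and connective tissue, was 1.34-fold higher. Its levels of 12.49, 12.59 and 12.69 (lowest, median, highest) on the arrays labelled KO were all above the 12.05, 12.175 and 12.35 of the arrays labelled WT. The difference was 0.42 ± 0.05 (SE) with an adjusted p of 8.1e-05. Igfbp7 was also among the brightest probe sets, above 99.4% of the genes by mean level.

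Igfbp6, which prefers IGF-II, was higher by 0.46 ± 0.15 (SE), but with wide spread. The arrays labelled KO lay at 9.4, 9.675 and 10.04 (lowest, median, highest) and the arrays labelled WT at 8.88, 9.175 and 9.86. Overlap came from the array labelled WT2 at 9.86, which lay above 4 of the arrays labelled KO, while the next highest labelled WT array, at 9.38, lay below all of them. The adjusted p was 0.0274, and it rose past the threshold when any single one of the arrays labelled KO4, KO5, WT1 or WT5 was left out, with differences of 0.385 to 0.423 and adjusted p-values of 0.0597 to 0.0622.

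Igfbp3, the main carrier of IGFs in serum, was decided by the same array. Levels were 10.92, 11.01 and 11.09 (lowest, median, highest) on the arrays labelled KO and 10.7, 10.79 and 11.73 on the arrays labelled WT. The array labelled WT2 held the 11.73, while the other 5 labelled WT stood at 10.9 or below and thus under every array labelled KO. With all 12 arrays the difference was 0.06 ± 0.14 (SE, 95% interval -0.24 to 0.36, adjusted p = 0.773). Without the array labelled WT2 it was 0.218 with an adjusted p of 0.00396. Igfbp3 lies at chr11:7206086-7215498, Igfbp4 on the same chromosome at chr11:99040005-99052655, Igfbp6 at chr15:102144186-102149512 and Igfbp7 at chr5:77349240-77408045 (GRCm38.p6).

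**Figure D2:**
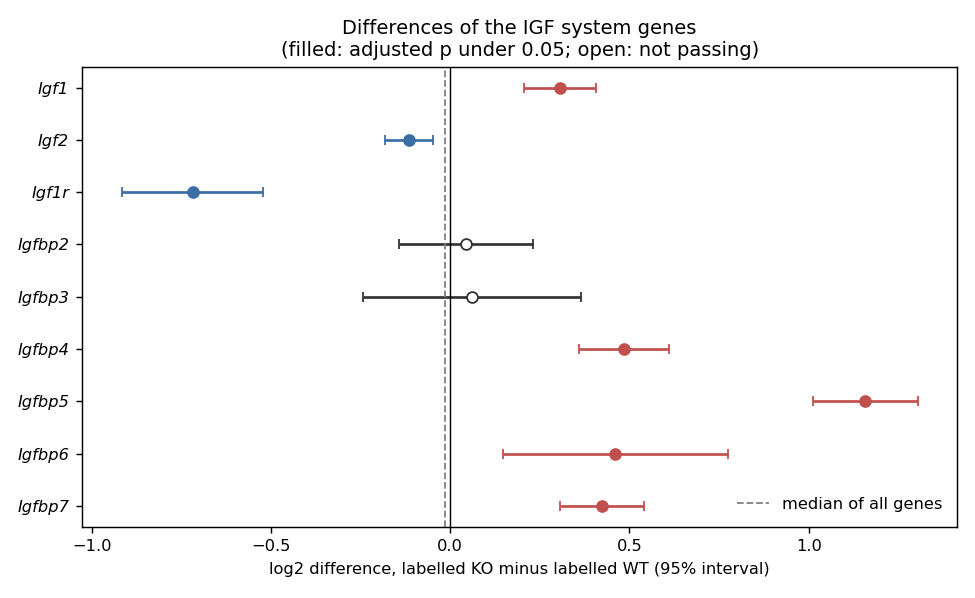
Log2 difference, labelled KO minus labelled WT, of each of the 9 genes (x axis, points) with its 95% interval from limma; filled points passed an adjusted p of 0.05, open points did not, and the dashed line marks the median of all genes. Igfbp5 at 1.16 and Igf1r at -0.72 lie at the ends, and Igfbp2 and Igfbp3 span 0.

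Within the labelled groups the members did not vary as 1 block. With the mean of each group removed, 24 of the 36 pairs of members had a Pearson's r above 0 and 12 below over the 12 arrays, with a median of 0.12. These values are a description, since all points share an array and its normalization. Igf2 and Igf1r varied together (r = 0.75, Spearman's rho = 0.69, and r = 0.61 without the 2 arrays farthest from the median of Igf2). The same held for Igf1 and Igfbp5 (r = 0.63, rho = 0.7, and 0.5 without the 2 arrays farthest from the median of Igf1). Igf1r and Igfbp2 varied in opposite directions (r = -0.59, rho = -0.71), but r was -0.28 without the 2 arrays farthest from the median of Igf1r. Igfbp3 and Igfbp6 had an r of 0.69, which rested on the array labelled WT2 and was -0.08 without it.

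**Figure D3:**
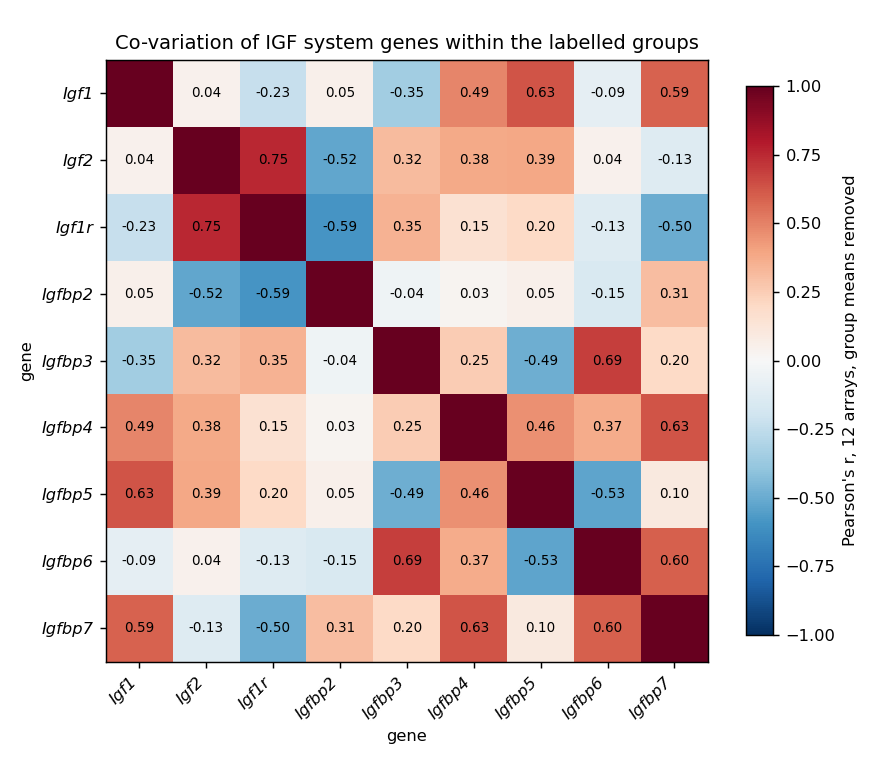
Pearson's r between each pair of the 9 genes over the 12 arrays after the mean of each labelled group was removed (colour and number; rows and columns are genes). The highest value is 0.75, for Igf2 with Igf1r, and the lowest -0.59, for Igf1r with Igfbp2.

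Genes with the pattern most like a member were sought among 9961 genes of at least median level, by the same within-group r over 12 arrays. Fchsd2 and Sema6d came nearest to Igfbp5 (r = 0.963 and 0.949), and both were higher, by 0.32 and 0.20 (adjusted p = 0.00753 and 0.0423). Igf1r was followed most closely by Vps13b and Tgfbrap1 (r = 0.952 and 0.943), neither of which passed the test. For Igf1 they were C130074G19Rik and Dact1 (0.916 and 0.902), and for Igf2 Jak1 and Trim2 (0.92 each). Igfbp4 was matched by Commd7 and Shox2 (0.964 and 0.961) and Igfbp7 by Eral1 and Cybrd1 (0.945 and 0.939). Igfbp2 was matched by Vps9d1 and Rps19bp1 (0.95 and 0.933) and Igfbp6 by Agtrap and Hibadh (0.934 and 0.927). For Igfbp3 they were Scara5 and Sfrp1 (r = 0.974 and 0.966), which stood at 8.51 and 9.33 on the array labelled WT2 and at no more than 7.59 and 8.19 on the others labelled WT. Without that array these values were 0.39 and 0.567.

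Markers of fibroblasts, endothelial cells and macrophages mostly moved in the same direction as several members. In whole muscle, a bulk tissue, more cells of a type and more RNA per cell cannot be told apart. Fibroblast markers averaged 11.15 to 11.38 on the arrays labelled KO and 10.84 to 11.16 on those labelled WT, with 8 of 10 higher. The 2 lower were Pdgfra and Thbs4, at -0.29 and -0.36 (adjusted p = 0.0249 and 0.000925). Endothelial markers averaged 9.96 to 10.03 on the labelled KO arrays, against 9.52 to 9.88 on the labelled WT arrays, with 6 of 10 higher and none lower, Vwf having a difference of -0.13 (adjusted p = 0.317). Macrophage markers averaged 8.62 to 8.79 on the labelled KO arrays, against 8.04 to 8.58 on the labelled WT arrays, with 7 of 10 higher. None of these 3 lists had a marker whose mean fell under 6 in either group. Muscle fibre markers were lower in 5 of 10 cases with a median difference of -0.12. The largest difference of that list went the other way without passing, 0.67 for Pvalb (adjusted p = 0.0558). Smooth muscle and pericyte markers had 2 higher and 2 lower of 10, as had satellite cell and myoblast markers. Schwann cell markers had 3 higher of 7 and none lower, and no red cell marker was called. Beside these counts, 20.1% of all genes were higher and 11.8% lower.

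Igfbp7 followed the fibroblast list within groups (r = 0.83, rho = 0.8, n = 12 arrays, and 0.69 without the 2 arrays farthest from the list's median), and Igf1 did so less closely (0.75, 0.71 and 0.58). For Igfbp4 the same 3 values were 0.7, 0.82 and 0.64 with the fibroblast list and 0.78, 0.57 and 0.3 with the endothelial list. For Igfbp5 r was 0.35 with the fibroblast list and 0.63 with the endothelial list, and -0.19 and -0.17 without the 2 farthest arrays. The Igfbp5 difference of 1.16 was larger than that of every fibroblast, endothelial and macrophage marker, of which Dpt had the largest at 0.91, and smaller than that of 4 adipocyte markers. The part of these cells in the differences of the members was not tested.

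Adipocyte markers were higher too, with differences of 2.75 for Ucp1, 2.12 for Lep, 1.72 for Plin1, 1.24 for Retn and 1.11 for Adipoq. For Ucp1 and Lep this is opposite to the direction in the text of the study. Within groups the list's r ran from -0.44 with Igfbp6 to 0.53 with Igf1r (rho = 0.52), and was 0.18 with Igfbp5 and 0.01 with Igf1. That list averaged 9.55 to 9.97 on 5 arrays labelled KO, 8.2 on the array labelled KO5 and 8.21 to 9.06 on the arrays labelled WT. Of its 9 markers 5 were higher, beside 20.1% of all genes. The array labelled KO5 held Igfbp5 at 11.47, Igf1 at 11.01 and Igf1r at 8.93, all on the labelled KO side. The part of adipose tissue in the differences of the members was not tested.

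**Figure D4:**
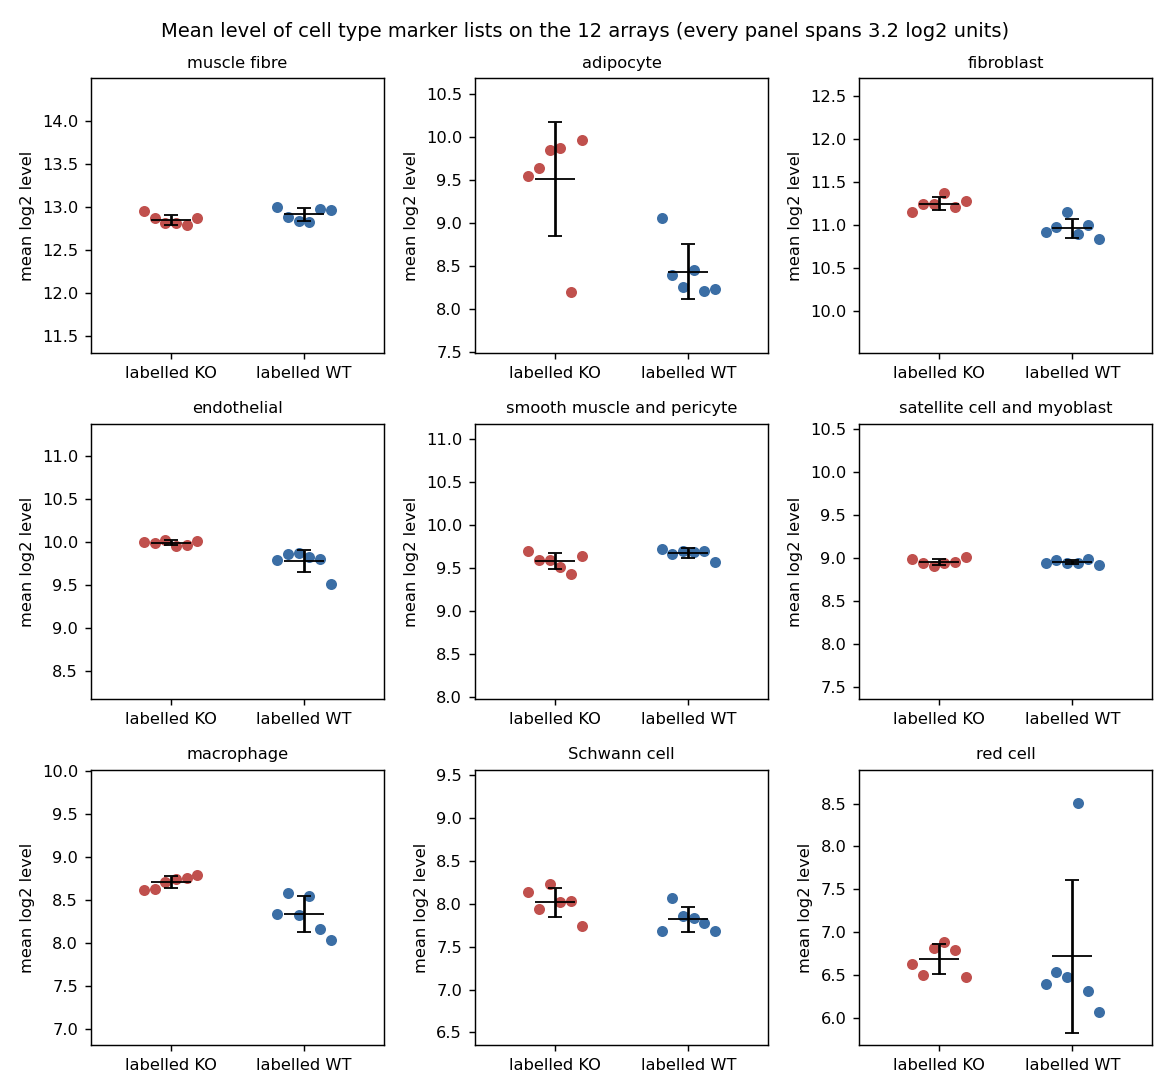
Mean log2 level of 9 lists of cell type markers on every array (points, y axis), with the arrays labelled KO on the left and those labelled WT on the right; lines and bars give the mean and SD (n = 6 each). Fibroblast, endothelial and macrophage lists stood higher on the arrays labelled KO, and the adipocyte list was low on 1 of them, at 8.2.

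Beyond the 9 genes, the other parts of the pathway were counted from lists of its receptors, proteases, upstream hormone signal and intracellular relay. Of 64 measured genes, 15 rose and 21 fell, that is 56.2% called beside 31.9% of all genes. With dim probe sets left out, 52 of them remained, of which 13 rose and 19 fell. Of the 9872 genes left by that filter, 50.5% were called. The median log2 difference of the 64 genes was -0.058.

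Of the other receptors, Insr and Igf2r were lower and Insrr, the insulin receptor-related receptor, did not pass (-0.07, adjusted p = 0.293). Insr, the insulin receptor, lay at 10.05, 10.265 and 10.56 (lowest, median, highest) on the arrays labelled KO, against 10.8, 10.875 and 11.14 on the arrays labelled WT. It did not overlap between groups and had a difference of -0.68 ± 0.09 (SE, adjusted p = 7.14e-05), with -0.69 for its other probe set. Igf2r, which clears IGF-II from the cell surface, differed by -0.33 ± 0.06 (SE, adjusted p = 0.00164). Igfals, the partner of IGF-I and Igfbp3 in the serum complex, was higher by 0.33 ± 0.06 (adjusted p = 0.000482). It was dim too, with means of 6.63 (labelled KO) and 6.3 (labelled WT), below the dim filter's level of 7.15. Igfbp1 was dim, with means of 5.34 (labelled KO) and 5.45 (labelled WT), and differed by -0.11 (adjusted p = 0.0333), a call lost under both rescalings, with quantile normalization (-0.035, adjusted p = 0.516) and with centring (-0.062, adjusted p = 0.216). It was also lost under the replicate block (adjusted p = 0.0767) and without the array labelled KO1, KO4, KO6, WT1, WT4 or WT5, with adjusted p-values of 0.0503 to 0.0772.

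Genes that act on the binding proteins went both ways, with 2 higher and 4 lower of 8 (75.0% called, beside 31.9% of all genes). Adam12 and Htra1, proteases known to cleave Igfbp5 among other proteins, were 1.51-fold higher each (differences of 0.60 ± 0.12 SE for both, adjusted p = 0.00202 and 0.00198), and neither overlapped between groups. Pappa, the protease that frees IGFs from Igfbp4, was lower. It lay at 6.4, 6.565 and 6.81 (lowest, median, highest) on the arrays labelled KO and 6.78, 7.23 and 8.16 on the arrays labelled WT, where the array labelled WT2 again stood highest. The difference was -0.71 ± 0.18 (SE, adjusted p = 0.00881). Stc2, an inhibitor of that protease, differed by -0.48 ± 0.11 (adjusted p = 0.00511). Pappa2 was dim and had a difference of -0.21 with an adjusted p of 0.0489, a call that was lost under many alternatives, both rescalings among them.

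Growth hormone drives Igf1 transcription through its receptor and STAT5, while SOCS proteins restrain that signal. Of the 8 genes of this list, 5 were higher (62.5%, beside 20.1% of all genes) and none lower, Jak2 having a difference of -0.14 (adjusted p = 0.0794). With dim probe sets left out, which kept all 8, 3456 of the 9872 genes left were higher. Ghr, the receptor, had levels of 10.61, 10.775 and 10.9 (lowest, median, highest) on the arrays labelled KO, against 9.87, 10.225 and 10.58 on the arrays labelled WT. The groups met without overlapping, and the difference was 0.54 ± 0.10 (SE, adjusted p = 0.000825). Stat5b and Stat5a were higher by 0.44 ± 0.08 and 0.42 ± 0.08 (SE, adjusted p = 0.000725 and 0.00134). The other 2 called higher were the inhibitors Socs3 and Socs2, by 0.42 and 0.28 (adjusted p = 0.0191 and 0.026). Each has a dimmer probe set that did not pass, with differences of -0.07 for Socs3 and 0.11 for Socs2 (adjusted p = 0.508 and 0.152). Socs1 and Cish did not pass (0.07 and -0.08, adjusted p = 0.274 and 0.713). On the same arrays Igf1 was higher by 0.31. The part of growth hormone signalling in that difference was not tested.

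Inside the cell, 3 of 12 receptor adaptors were called (25.0%, beside 31.9% of all genes). Irs2, which links insulin and IGF receptors to PI3K, differed by -0.63 ± 0.12 (SE, adjusted p = 0.00137), while Irs1 did not pass (-0.08, adjusted p = 0.56). Grb14, an adaptor that inhibits the insulin receptor, was 1.61-fold higher (0.69 ± 0.14 SE, adjusted p = 0.00204), and the phosphatase Ptpn11 differed by -0.20 ± 0.04 (SE, adjusted p = 0.00321).

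The PI3K, Akt and mTOR list had 6 higher and 11 lower of 28, that is 60.7% called. Beside this, 20.1% of all genes were higher and 11.8% lower. With dim probe sets left out, 27 of the 28 remained, 5 of them higher and 13 lower. Of the 9872 genes left by that filter, 3456 were higher and 1533 lower. Pdpk1, the kinase that activates Akt, lay at 10.47 to 10.74 on the arrays labelled KO and at 11.11 to 11.44 on the arrays labelled WT, with a difference of -0.69 ± 0.06 (SE, adjusted p = 5.11e-06). Deptor, an inhibitor of mTOR, was 1.47-fold higher, at 10.46 to 10.76 on the arrays labelled KO, against 9.87 to 10.12 on those labelled WT (0.55 ± 0.06 SE, adjusted p = 1.21e-05). Both genes were separate between the groups. Mlst8, a subunit of both mTOR complexes, was 1.40-fold higher, and Akt1 was higher by 0.27 ± 0.05 (adjusted p = 0.000530 and 0.00228). Pik3r3, a regulatory subunit of PI3K, differed by -0.52 ± 0.11 and Foxo3, a transcription factor that Akt restrains, by -0.44 ± 0.14 (SE, adjusted p = 0.00286 and 0.0271). The Foxo3 call was lost without the array labelled KO5, KO6 or WT6, with adjusted p-values of 0.0505, 0.0542 and 0.0601, and under the methods' t-test after Benjamini-Hochberg adjustment (0.0635). Of the mRNA-binding proteins that bind the Igf2 transcript, Igf2bp1 differed by -0.51 ± 0.07 (SE, adjusted p = 0.000117) and Igf2bp3 did not pass (0.03, adjusted p = 0.666).

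**Figure D5:**
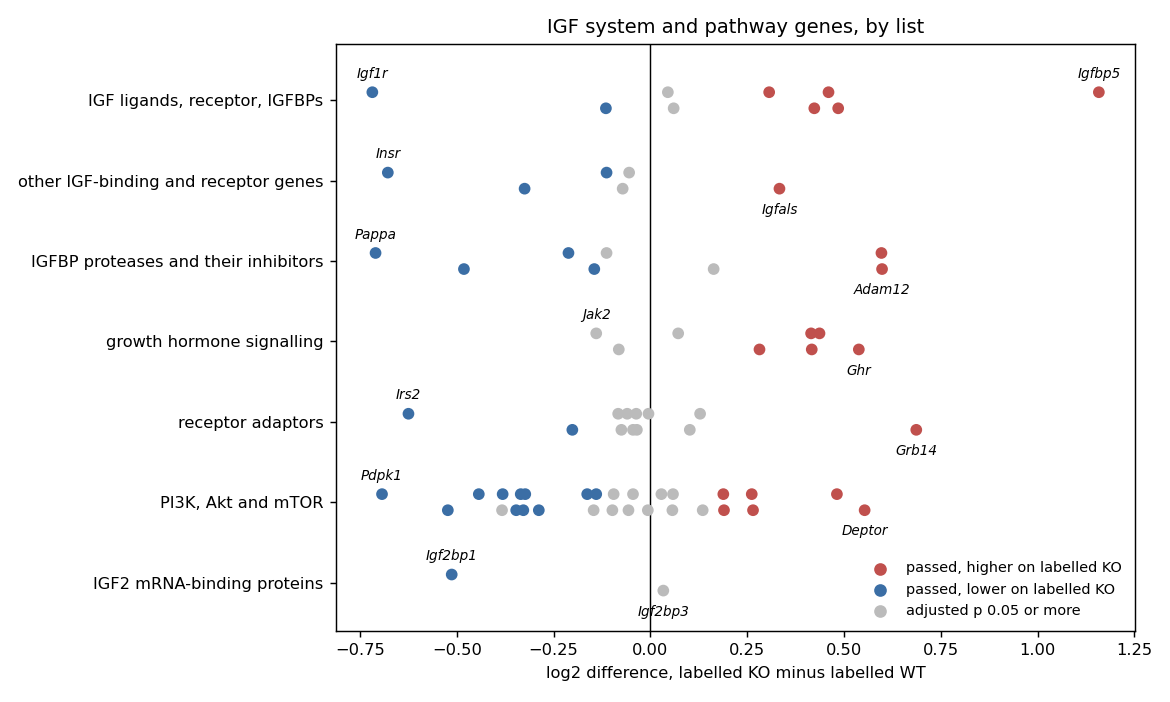
Log2 difference, labelled KO minus labelled WT (x axis), of the 9 IGF system genes and of 64 other pathway genes in 6 lists (rows); each point is a gene, and grey points had an adjusted p of 0.05 or more. Insr at -0.68 and Pdpk1 at -0.69 lie beside Igf1r, while Igfbp5 at 1.16 lies to the right of every other gene drawn.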

How the data were processed

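Total RNA of quadriceps muscle from 12 mice was hybridized to Affymetrix Mouse Gene 1.0 ST arrays, 1 mouse per array. The authors extracted features with GCOS and made normalized gene level values with Affymetrix Power Tools; the sources used here do not name its version, the summary algorithm or the build. What the authors deposited was read as log2 levels, a scale inferred from the values. Of 35556 probe sets, 21789 had 1 gene symbol in the platform annotation and were tested, with symbols updated by gene identifier from RefSeq (21698 matched). Per gene the probe set of highest mean stood for it, which gave 19938 genes; all 9 members had 1 probe set. Differences (labelled KO minus labelled WT) were fitted with limma (version 3.58.1, lmFit and eBayes, under R version 4.3.3) with no covariate, further normalization or filter, with Benjamini-Hochberg adjustment over the tested probe sets and a threshold of 0.05. The fit was tested on simulated data. The number of arrays limits the precision, and p-values cover the spread between these mice.

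The members and lists were chosen with earlier results of these data known. Named genes are Cfl2, the members, up to 3 passing genes per direction of each pathway list, and the 2 genes most like each member. Genes given as not passing, or as single markers, were added for contrast. Of 69 listed pathway genes 64 were measured. Alternatives were a replicate block, 2 rescalings, all rows, a filter on dim probe sets, the methods' t-test, other variance settings, array weights and each array left out.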

Additional observations from a re-analysis of the deposited data

Results flagged for a closer look

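In 20 groups of 6 values (9 members and Cfl2, in each labelled group), the highest or lowest array stood apart from the rest in 3, by a share of the group's range above the 95% critical value of Dixon's test. Chance alone gives about 1 in 20. Igfbp3 stood at 11.73 on the array labelled WT2, with a gap of 0.806 of the range. Igfbp4 stood at 10.15 on the array labelled WT6, the lowest of its group (0.71 of the range). Igfbp2 stood at 7.45 on the array labelled KO5, the highest of its group (0.654 of the range).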

How the results depend on the processing

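Igf1, Igf1r, Igfbp4, Igfbp5, Igfbp7 and Cfl2 kept direction and call under all 21 alternatives, 12 of which left out 1 array. With 1 array left out the log2 differences ranged from 0.29 to 0.332 for Igf1, -0.76 to -0.666 for Igf1r, 0.44 to 0.515 for Igfbp4, 1.107 to 1.185 for Igfbp5, 0.397 to 0.457 for Igfbp7, -0.124 to -0.108 for Igf2 and 6.094 to 6.652 for Cfl2. They ranged from 0.385 to 0.581 for Igfbp6, 0.012 to 0.218 for Igfbp3 and -0.023 to 0.107 for Igfbp2. Igfbp2 did not pass under any alternative. It turned to -0.023 without the array labelled WT4 and to -0.014 with array weights (adjusted p = 0.828 and 0.905). The Igfbp6 call was also lost under the methods' t-test after Benjamini-Hochberg adjustment (0.46, adjusted p = 0.0644). The Igf2 call was lost with centring (-0.064) and with the replicate block (-0.115, adjusted p = 0.0627); the cause was not tested. Members called lower then numbered 1 instead of 2 in both settings, and members wholly below the other group numbered 1 with centring and 1 with quantile normalization. Members called higher numbered 4 to 6 with 1 array left out. The mice were littermate pairs, but no source ties the array numbers to litters. The numbers were not taken to pair mice, since same-numbered arrays correlated at -0.222 to 0.168 after group means were removed; under the block 5558 genes were called instead of 6359, and no other member's call changed. The methods' t-test called 8232 genes unadjusted and 5799 after adjustment. Averaging probe sets was not run, since each member has 1. Of 22 pathway genes named by the rule, 19 kept their calls under every alternative that tested them, the exceptions being Igfbp1, Pappa2 and Foxo3. Background was not measured, so levels have no known floor.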
